A study of Onthophagus taurus with 66 samples.

Results

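The 100 messenger RNAs with the highest mean level in the dorsal head of Onthophagus taurus pre-pupae were selected on that mean, taken over all 66 libraries as CPM (the count of a transcript as parts in 1000000 of the total count of its library). They are 100 of 21668 mRNA transcripts, and 23725 transcripts of any kind were quantified. Because the mean level chose them, their height and the share of a library that they hold are descriptions and carry no test. No label of region, animal or sex was used in the choice, but every library weighed on the mean. A member can thus enter through a few high animals, as XM_023046179.1 did with a mean of 929 CPM and a median of 50.3 CPM. By the median, 94 members were in the top 100. Wide ranges over animals are therefore not free of the choice. At the edge of the selection stood XM_023060548.1, XM_023060892.1 and XM_023047416.1 with mean levels of 790, 778.0 and 777.5 CPM, and the mRNAs just outside were XM_023061787.1, XM_023063299.1 and XM_023060774.1 with 772, 757 and 749 CPM. Another 4 rows above the last member are noncoding RNAs and are not members.

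The study asked how the dorsal head of this horned beetle is divided into regions in the sex that grows posterior head horns and in the sex that does not. It used 6 males and 5 females, all large untreated pre-pupae in the last hours before the moult to the pupa, from laboratory colonies founded with beetles from North Carolina and Western Australia; no label says which colony an animal came from. From each animal the dorsal head epithelium, freed of eye, labrum and underlying tissue, gave 6 pieces, namely left and right lateral anterior (LatA), left and right lateral posterior (LatP), medial anterior (MA) and medial posterior (MP). Each piece was 1 library of stranded mRNA sequencing. The pieces of an animal share that animal, so n below is the number of animals, and a piece holds every cell type that remained on the epithelium. In such pieces fewer cells of a type and less RNA per cell cannot be told apart.

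Shortly before the pupal moult the epidermis of an insect has separated from the larval cuticle and secretes the next cuticle beneath it. Cuticle is built of chitin fibres and of a large family of structural proteins, and the genes for these proteins often lie in runs of neighbouring copies that are switched on in waves as a moult proceeds. Epidermal cells at this stage also make enzymes that modify chitin and serine proteases that act outside the cell. Which of the 100 members code for such proteins could mostly not be told here, because product names were at hand for few of them.

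Of the 100 members, 86 were found by accession in a gene table made on IU_Otau_3.0, which is not the build of the gene models used by the authors, and these 86 belong to 82 genes. The supplementary gene list of the study names only 2 of them. XM_023063173.1 is listed as serine protease Hayan-like, but its best hit in both Tribolium and Drosophila is another serine protease, snake. Hayan in Drosophila is a protease of the blood that acts in the melanization cascade, and whether this member acts so was not tested. XM_023045708.1 is listed as an uncharacterized protein. For XM_023052611.1 and XM_023052624.1, both of gene LOC111419747, a further transcript of the same gene has chitin deacetylase 2 of Tribolium as its best hit. Chitin deacetylases remove acetyl groups from chitin and take part in the ordering of chitin fibres. XM_023052674.1 belongs to a gene with a transcript whose best hit in Drosophila is stathmin, a protein that binds tubulin. That transcript is listed as S phase cyclin A-associated protein in the endoplasmic reticulum, with myosin-9 as its best hit in Tribolium, so its names disagree. The other members are given by accession and, where found, by gene symbol.

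Some members are neighbours in the genome. In the gene order of IU_Otau_3.0, 16 members have another member in an adjacent gene. XM_023050848.1 of LOC111418334 lies between XM_023050850.1 of LOC111418336 and XM_023050862.1 of LOC111418342, and XM_023050869.1 of LOC111418349 lies 7 genes from the last of these. All 4 are among the 11 highest mRNAs of the head. A transcript 2 genes from XM_023050869.1 is listed by the study as cuticle protein 16.5-like. XM_023046166.1, XM_023046169.1 and XM_023046179.1 lie within 12 genes of each other, and the genes on both sides of XM_023046179.1 have cuticle protein 16.5 of Tribolium as the best hit of a listed transcript. A neighbour's name is no annotation of the member itself. Transcripts that share a gene with another member number 8, some of them also among the 16, and for these the division of reads between transcripts by RSEM, which estimates how reads that fit several transcripts are split, is uncertain, as it is for members with near-identical copies.

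The libraries held between 10807956 and 17048942 counts with a median of 13246361, so a floor of 3 counts lay between 0.176 and 0.278 CPM. Counting error was small for most members. In their lowest library 5 members were under 10 CPM, XM_023056446.1 among them, and there counting error was larger. Apart from XM_023056446.1, the lowest count of a member in any library was 11. The reads carry no molecular identifiers, so this floor covers counting error only. In 5 libraries the members stood apart from those of the other libraries of the same sex and region or of the same animal. They were the 4 LatP libraries of females 3 and 5 and the left LatA library of female 2. Several results are also given without females 3 and 5 as whole animals, or without that left LatA library. Some members also stood apart in MA of male 1, such as XM_023051587.1 with 11500 CPM against at most 6461 CPM in MA of the other males. That library and right LatA of male 1 are doubted below. Region counts are given without both, but shares are not. Their shares, 71.3% and 71.2%, lay within the range of the male libraries of their regions. Marker lists of other cell types could be drawn only from the study's list of 368 transcripts that it called on these same samples. The 17 muscle transcripts, such as troponins and tropomyosins, had median sums of 391 CPM in male and 961 CPM in female MP, with highest libraries of 1046 and 1381 CPM, and outside MP reached 209 CPM in males and 1123 CPM in females. The 4 eye transcripts reached 67 CPM in LatP and stayed at or under 2.50 CPM in the other regions. A list of 35 cuticle and chitin transcripts, the epidermal list, had a summed median between 723 and 3020 CPM in every sex and region, and no transcript of any of these lists is a member.

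A small number of mRNAs filled most of each library. The 100 members held 70.6% of the counts on average over the 66 libraries, with a lowest share of 57.4%, a median of 71.2% and a highest share of 76.5%. The highest transcript alone, XM_023050859.1, held a median of 8.30%. The 10 highest held 39.8% on average, and the 50 highest 65.0%. To reach 50% of a library took between 12 and 25 transcripts of any kind, with a median of 15. The 200 highest mRNAs held 76.0% on average. Of the members, 39 were among the 100 highest mRNAs of all 66 libraries and 9 were in fewer than 33, and the 100 highest mRNAs of a library shared between 66 and 92 with the members, with a median of 85.5.

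**Figure D1:**
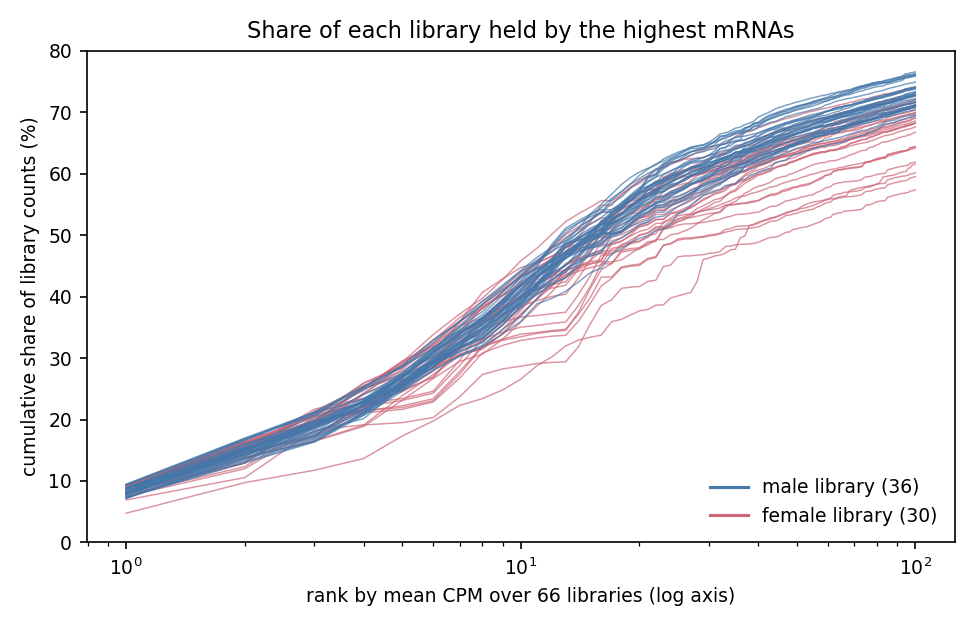
Cumulative share of the library counts (percent, vertical axis) against the rank of the mRNA by mean CPM (log axis), with 1 line for each of 36 male and 30 female libraries. The lines ended between 57.4% and 76.5% at rank 100, and the lowest lines were female.

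The 10 highest members differed in how far they varied. XM_023050859.1 ranged over 11 animal means from 75254 to 89271 CPM, and XM_023050848.1, the next, from 52798 to 71883 CPM. XM_023065439.1 ranged from 28515 CPM in female 1 to 66316 CPM in female 3, and XM_023048391.1 from 12171 CPM in female 1 to 44715 CPM in female 5. XM_023056928.1 was lowest in female 3 with 10228 CPM and highest in female 1 with 45978 CPM. The same females stood at opposite ends for these members. XM_023048902.1 ranged from 14779 to 54278 CPM, XM_023050869.1 from 17429 to 40220 CPM, XM_023046166.1 from 23381 to 47370 CPM, XM_023050862.1 from 13559 to 30852 CPM and XM_023065037.1 from 10188 to 33474 CPM. None of these 10 was called in any region contrast or between the sexes at an adjusted p under 0.05 in edgeR's quasi-likelihood test without the animal as a block. With that block, 80 of the 100 members were called in LatP against MP of females, and these 10 are not listed separately there. XM_023046166.1 was also called in the sex difference of LatA against LatP given below.

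The share differed between the sexes. Averaged over the 6 pieces of an animal, it was 71.8%, 74.0%, 71.9%, 73.8%, 73.2% and 72.7% in males 1 to 6 and 68.8%, 68.1%, 65.8%, 70.3% and 66.6% in females 1 to 5. Every male lay above every female, with a mean of 72.9% ± 0.936 (SD, n = 6) in males and 67.9% ± 1.78 (SD, n = 5) in females. The gap was 4.97 percentage points with all animals and 3.82 points without females 3 and 5. It lay mostly in the members of rank 11 to 50, which held 26.8% ± 0.511 (SD, n = 6) of the male and 23.3% ± 1.79 (SD, n = 5) of the female counts and again did not overlap between the sexes. The members of rank 51 to 100 held 5.54% ± 0.179 (SD, n = 6) in males and 5.75% ± 0.434 (SD, n = 5) in females. Of single members, 55 had a higher mean CPM in males and 45 in females, and the largest gap was that of XM_023056928.1 with 1.07 points of the library more in males.

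**Figure D2:**
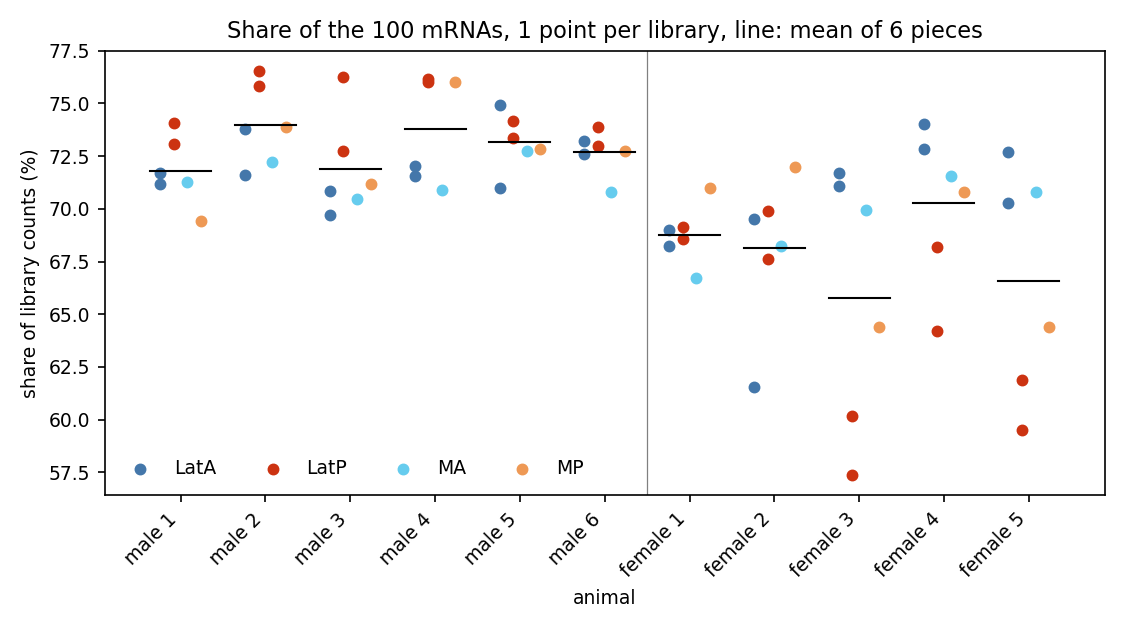
Share of the library counts held by the 100 members (percent, vertical axis) by animal, with 1 point for each of the 6 libraries of an animal coloured by region and a line at their mean. The male means lay between 71.8% and 74.0% and the female means between 65.8% and 70.3%, and the LatP points were low in females 3, 4 and 5.

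The regions differed in opposite ways in males and females. In males the share was highest in LatP, with 74.6% ± 1.26 (SD, n = 6), against 72.0% ± 1.05 in LatA, 71.4% ± 0.885 in MA and 72.7% ± 2.26 in MP. LatP lay above LatA in 6 of 6 males, by 0.532 to 4.29 points, and above MP in 6 of 6, by 0.0951 to 4.15 points. In females the share was lowest in LatP, with 64.7% ± 4.66 (SD, n = 5), against 70.1% ± 3.08 in LatA, 69.5% in MA (66.7% to 71.6%) and 68.5% ± 3.78 in MP.

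In females LatP lay below MP in 5 of 5 animals, with differences of -2.14, -3.23, -5.64, -4.62 and -3.70 points in females 1 to 5. LatA exceeded LatP by 12.6, 7.24 and 10.8 points in females 3, 4 and 5, while in females 1 and 2 the difference was -0.227 and -3.23 points. The mean difference of LatA minus LatP in females, 5.44 points, was therefore under its own SD of 6.90 (n = 5). It was 1.26 points without females 3 and 5, and 6.24 points without the left LatA library of female 2, whose share of 61.5% lay 7.96 points under that of its right counterpart. MA minus MP in females was 0.937 points and turned to -2.41 points without females 3 and 5.

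The marker lists had these levels in LatP. The 17 muscle transcripts summed to 415, 405 and 575 CPM in LatP of females 3, 4 and 5, to 96.5 and 60.9 CPM in females 1 and 2, and to between 34.9 and 105 CPM in males 1 to 6. The 4 eye transcripts summed to between 10.1 and 40.9 CPM in female and between 1.56 and 66.8 CPM in male LatP libraries. The single hemocyte transcript had a median of 20.5 CPM and reached 62.2 CPM in female LatP libraries, against a median of 2.98 CPM in male LatP and at most 1.11 CPM as the median of any other female region, and the 2 neuron transcripts had median sums of 7.01 and 4.49 CPM in female and male LatP. The 35 epidermal transcripts summed to 478, 723, 2598, 575 and 2098 CPM in LatP of females 1 to 5 and to between 921 and 2482 CPM in males, so they were highest among females in females 3 and 5, whose member shares were lowest. The part of these transcripts in the difference was not tested. The TMM factor, by which edgeR multiplies the total of a library before scaling, had a median of 1.42 in female LatP and 0.880 in male LatP.

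Sex held 37.5% of the sum of squares of the share over the 66 libraries, animals within a sex 9.46%, the 4 regions 1.20%, and the combination of sex and region 19.6%, which is part of the remainder of 51.9%. Left and right pieces of the same animal and region differed by a median of 1.06 points over 22 pairs, with left higher in 14.

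For single members the animal held more of the sum of squares than sex or region. On log2(CPM + 1), the animal within its sex held a median of 60.4% of the sum of squares of a member, against 25.1% for the 15449 transcripts above 1 CPM in at least 2 libraries. Sex held a median of 6.31% in members and 6.32% in all these transcripts, and region 7.58% and 6.35%. With TMM scaling the animal held 52.2% in members and 28.2% in all. The animal was the largest of the 4 parts in 78 members, the remainder in 15, region in 4 and sex in 3. The parts were not adjusted for the number of groups, and 11 animals leave more room than 4 regions or males and females. This favours the animal part, in members and in all transcripts alike. Members have many counts, so less of their variation is counting noise than in the lower transcripts, and how far that sets the gap was not tested.

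**Figure D3:**
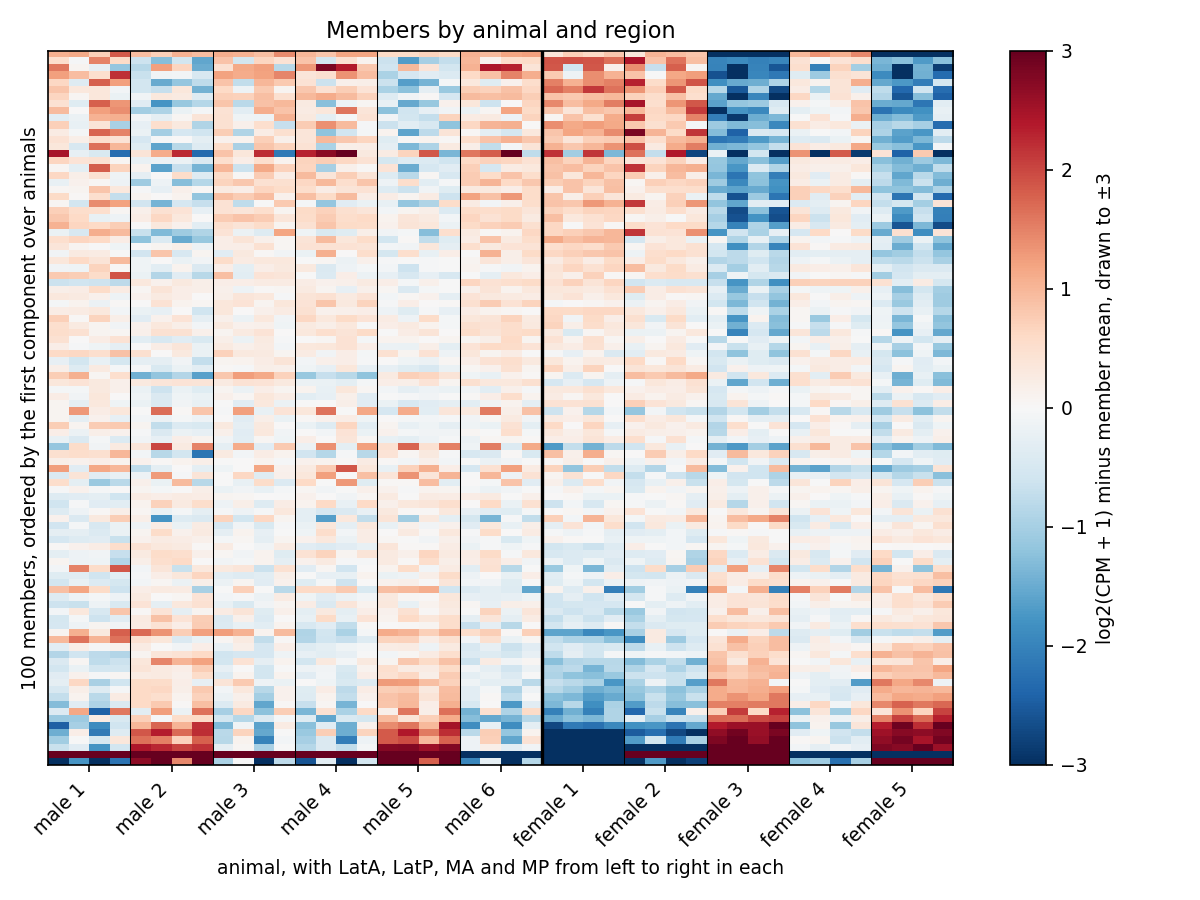
Level of each of the 100 members (rows, ordered by their weight on the first component over animals) in 44 combinations of animal and region (columns), as log2(CPM + 1) minus the mean of the member, with colours drawn to ±3. Blocks of 4 columns of the same colour show that the pieces of an animal moved together, most clearly in females 1, 3 and 5.

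The same females stood at the ends in most members. Females 3 and 5 were the lowest animals in 42 members and the highest in 20, so together they formed an extreme in 62 of 100. Females 1 and 2 came next, lowest in 18 and highest in 18. No other 2 animals formed an extreme in more than 10. The first component of the animal means on log2(CPM + 1) held 49.5% of their variance, with female 1 at -13.1, females 2, 4 and male 6 between -6.11 and -4.65, males 1, 3 and 4 between -2.07 and -0.870, males 2 and 5 and female 5 between 6.07 and 7.59, and female 3 at 13.6. The order thus ran through both sexes. The largest weights on this component were those of the 5 members with the widest range of animal means. They were 0.411 for XM_023046179.1, 0.350 for XM_023056446.1, 0.306 for XM_023064168.1, 0.261 for XM_023055910.1 and 0.258 for XM_023050762.1. The order therefore leans on these few members and does not describe all 100 alike. Whether it follows the hours left to pupation, the colony or the day of dissection was not tested, since no label gives them for single animals.

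The ratio of the highest to the lowest animal mean was under 2 in 26 members, between 2 and 10 in 62 and 10 or more in 12, with a median of 3.37. Among the next 100 mRNAs by rank, it had a median of 2.48 and was 10 or more in 14. The 5 members with the narrowest range were XM_023050859.1 with 1.19, XM_023051350.1 with 1.35, XM_023050848.1 with 1.36, XM_023045373.1 with 1.45 and XM_023060892.1 with 1.46. XM_023051350.1 of LOC111418706 lay between 788 CPM in male 2 and 1060 CPM in female 1. After TMM scaling, these 5 had ranges of 1.51 to 2.00. The animal means of males and females overlapped in all 5.

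XM_023056446.1 of LOC111423198, the 17th highest mRNA, was present in some animals and almost absent from others. It stood at 27588 and 16230 CPM in females 2 and 3, and at 24987, 16706, 13906, 14879 and 14098 CPM in males 1 to 5. In females 1, 4 and 5 and in male 6 its mean was 0.942, 0.409, 0.506 and 0.699 CPM. All 6 libraries of an animal were alike, since the highest of the 24 libraries of those 4 animals had 1.63 CPM and the lowest of the 42 libraries of the other 7 had 9264 CPM. Male 6 was alone among males and females 1, 4 and 5 were on the same side, so the split crossed the sexes and every region. Animal within sex held 80.7% of its sum of squares, sex 19.1% and region 0.0407%. In 4 of those 24 libraries it had no count, which allows up to 0.278 CPM in the smallest library. Without this transcript, the share of the other 99 members was 69.5% on average and the gap between the sexes 4.44 points.

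The other 4 of the 5 members with the widest range formed a gradient in place of a split. XM_023046179.1 of LOC111414742 stood at 4.39, 15.8, 4021, 37.7 and 4452 CPM in females 1 to 5, and at 13.8, 710, 54.8, 39.8, 824 and 41.9 CPM in males 1 to 6. XM_023064168.1 of LOC111428584 stood at 17.2, 40.6, 4361, 426 and 3404 CPM in the females and from 304 to 3187 CPM in the males, with males 2 and 5 highest. XM_023055910.1 of LOC111422692 stood at 18.2, 254, 4483, 525 and 3768 CPM in the females and from 337 to 1896 CPM in the males, with males 2 and 5 again highest. XM_023050762.1 of LOC111418258 stood at 187, 469, 19354, 2227 and 18121 CPM in the females and from 1910 to 12010 CPM in the males. In all 4 females 3 and 5 were highest, males 2 and 5 came next and female 1 was lowest. Their ranges were 1015-fold, 253-fold, 247-fold and, for XM_023050762.1, over 100-fold. XM_023046179.1 lies 12 genes from XM_023046166.1, the 7th highest mRNA, and over the 66 libraries the 2 had a correlation of 0.85 on log2(CPM + 1), with the animals shared among the points. XM_023046169.1, which lies between them, had correlations of -0.19 with XM_023046166.1 and -0.38 with XM_023046179.1.

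**Figure D4:**
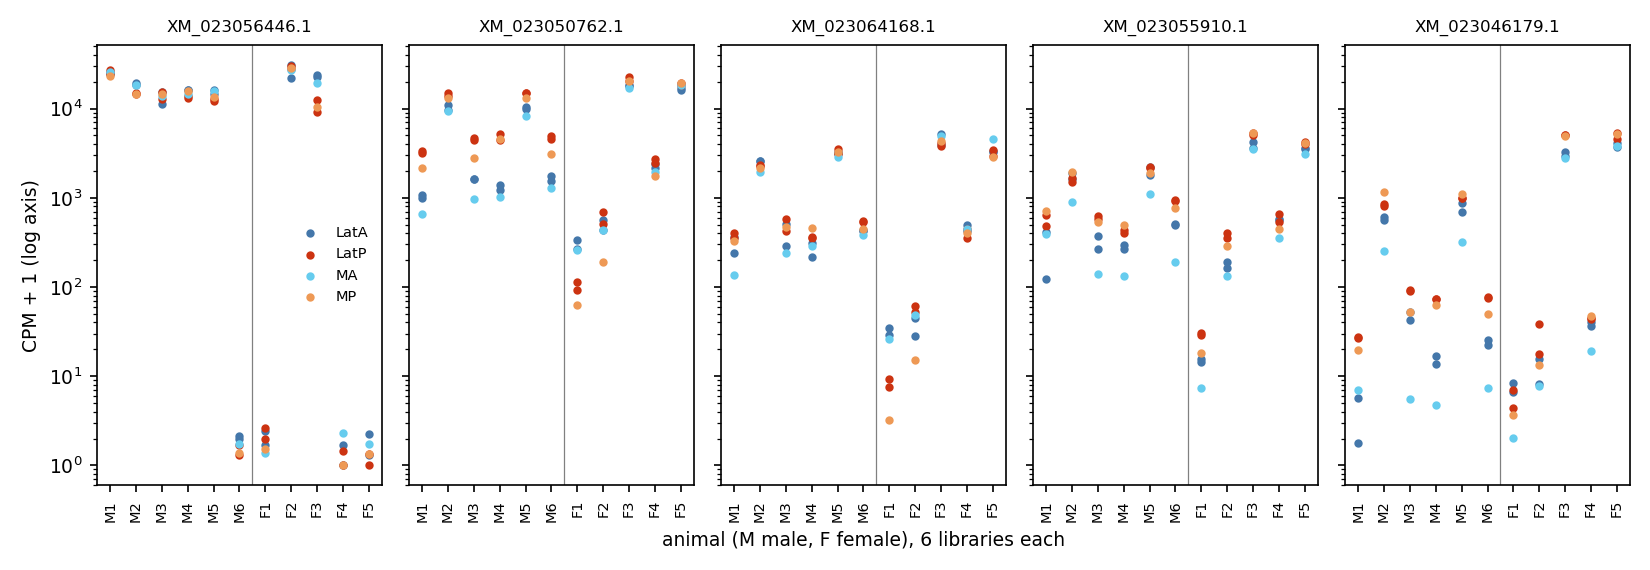
Level of the 5 members with the widest range over animals (CPM + 1, log axis) in each library by animal, coloured by region, with males M1 to M6 and females F1 to F5. XM_023056446.1 was at or under 1.63 CPM in M6, F1, F4 and F5 and at or above 9264 CPM in the others, and the other 4 were highest in F3 and F5 and lowest in F1.

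How many members were called between regions depended on the fit. In LatP against MP of females it was 5 of 100 without the animal as block and 80 with it. Each contrast was fitted within 1 sex on all transcripts above 1 CPM in at least 2 of its libraries, and a member was called at an adjusted p under 0.05 with edgeR's quasi-likelihood test, with left and right pieces as separate libraries. Because all pieces come from the same animals, the count of each contrast is also given with the animal as replicate block. All 100 members passed the filter in every contrast. At the thresholds of the study, which are 0.001 for the adjusted p and 2 for the size of the log2 fold change, edgeR without the block called 0 members in every contrast. The most transcripts of any kind that it called there were 108 of 13615, in LatA against LatP of males. DESeq2 without the block called 1 member in LatP against MP of males, beside 189 of 13167 transcripts, and 2 in MA against MP of males, beside 174 of 12485. In females it called 1 in LatA against LatP, beside 201 of 14584, and 1 in MA against MP, beside 134 of 12978. With the block, edgeR called 1 in LatP against MP of males, beside 87 of 13167, and 2 in LatA against LatP of females, beside 113 of 14584. Counts this small do not set the members apart from all transcripts.

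In males, LatP against MP called 3 members higher in LatP and 11 lower, 14% against 5.67% of the 13167 transcripts tested. LatA against LatP called 7 higher and 12 lower, against 5.28% of 13615. MA against MP called 1 higher and 4 lower, against 2.85% of 12485, and between 0 and 10 members when single males were left out. LatA against MA called 0 members and 0% of 13158 transcripts, with 2 members and 4.75% of transcripts at an unadjusted p under 0.05. With the replicate block it called 0 members and 0.0836%, with 22 members and 6.24% of transcripts at an unadjusted p under 0.05. DESeq2 called 57 transcripts there and 0 members. In earlier work on these data, MA and right LatA of male 1 each looked more like the other's region, which is not shown here. When these 2 libraries were left out, LatA against MA called 37 transcripts and 0 members. LatA against LatP then again called 7 members higher and 12 lower, and MA against MP called 2 higher and 5 lower, against 2.55%. In all, 26 distinct members were called in males, 12 of them in more than 1 contrast. Members were called more often than the transcripts at large in LatP against MP and in LatA against LatP. They were chosen for their many counts, with which smaller changes can be called. How far that set the excess, here and in the comparisons below, was not tested. With the replicate block, the counts were 18 higher and 23 lower in LatP against MP, where the background was 14.2%, 10 and 30 in LatA against LatP with 11.1%, and 5 and 24 in MA against MP with 5.41%. With left and right pieces added together before the block, LatP against MP called 11 higher and 16 lower against a background of 7.37%, and LatA against LatP 7 and 16 against 5.67%.

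In females, LatP against MP called 1 member higher and 4 lower, against 3.44% of 14297 transcripts, and LatA against LatP called 10 higher and 0 lower, against 3.63% of 14584. MA against MP called 1 member against 0.593% of 12978. LatA against MA called 0 members against 0.0298% of 13420, with 0 members and 3.36% of transcripts at an unadjusted p under 0.05 and 0 members by DESeq2. The replicate block called 0 members there too, against 0.0596%, with 12 members and 6.25% of transcripts at an unadjusted p under 0.05. Distinct members called in females numbered 15. With the replicate block, LatP against MP called 2 higher and 78 lower with a background of 16.1%, LatA against LatP 49 higher and 2 lower with 10.6%, and MA against MP 2 higher and 2 lower with 0.902%. With left and right added together before the block, these were 2 higher and 61 lower against 8.27% in LatP against MP, and 1 higher and 0 lower against 0.855% in LatA against LatP. Without females 3 and 5, LatA against LatP called 3 higher and 0 lower against 1.57% of 13357 transcripts, and 8 and 0 with the block against 2.76%. LatP against MP called 1 and 3 against 3.33% of 12892, which is near that share, and 2 and 35 with the block against 8.32%. The block count of LatP against MP in females thus went from 80 to 37 of 100 without them. Without the left LatA library of female 2, LatA against LatP called 14 members higher and 0 lower, against 5.46% of 14457 transcripts. With the block these were 68 and 2 against 15.8%.

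These directions depend on the scaling, since a change in the share of 100 transcripts that hold most of the counts moves all others. With TMM, the median log2 fold change of the members in female LatP against MP was -0.48 and that of all transcripts 0.02, and with plain library totals they were -0.03 and 0.47. The members stood 0.50 under all transcripts either way. In LatA against LatP of females they stood 0.57 above with TMM and 0.62 above with totals. In males they stood 0.16 under with TMM and 0.15 under with totals in LatA against LatP, and 0.06 under with both in LatP against MP. With library totals, the called members split into 7 higher and 7 lower in male LatP against MP, against 4.94% of all transcripts. They were 12 and 12 against 6.54% in male LatA against LatP, and 3 and 4 against 4.05% in male MA against MP. In females they were 1 and 0 against 6.88% in LatP against MP, and 7 and 3 against 25.8% in LatA against LatP. Both female counts were under the share over all transcripts.

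XM_023061174.1 of LOC111426571, rank 32, was highest in LatP of males. Its level in males was 6780, 8563 and 10007 CPM as lowest, median and highest in LatP, against 2204, 3240 and 3954 CPM in LatA, with no overlap, and against 3960, 4891 and 7050 CPM in MP. In females LatP held 3454, 2983, 2134, 3232 and 1930 CPM and LatA 2033, 1396, 1716, 2268 and 1489 CPM. It fell in LatA against LatP in males, with a log2 fold change of -1.52 ± 0.16 (SE) and an edgeR adjusted p of 2.87e-07. Its fall in MA against MP of males, -0.94 ± 0.21 with an edgeR adjusted p of 0.0389, was lost when any of males 2 to 6 was left out.

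XM_023054177.1 of LOC111421060 and XM_023059664.1 of LOC111425560 were higher in the posterior than in the anterior regions of males. XM_023054177.1 stood at 1078, 1484 and 2401 CPM (lowest, median and highest) in male LatP and at 1185, 1837 and 2475 CPM in MP, against 296, 495 and 885 CPM in LatA and 147, 412 and 888 CPM in MA. Neither posterior region overlapped with the anterior ones. The log2 fold change was -1.72 ± 0.22 in LatA against LatP with an edgeR adjusted p of 5.97e-06, and -2.12 ± 0.40 in MA against MP with an adjusted p of 0.0157. XM_023059664.1 stood at 932, 1753 and 2560 CPM in male LatP and 285, 572 and 871 CPM in LatA, with a log2 fold change of -1.70 ± 0.22 and an edgeR adjusted p of 7.38e-06. Its change in MA against MP was -1.38 ± 0.26 with an adjusted p of 0.0159. In both members the calls in MA against MP were lost when males 2, 3, 4 or 6 were left out, while those in LatA against LatP held without any male. In females XM_023054177.1 stood at 289, 499, 3400, 1012 and 2013 CPM in LatP and 193, 153, 1305, 335 and 1021 CPM in LatA, lower in LatA than in LatP and lower in MA than in MP in 5 of 5 females, without being called. XM_023059664.1 was lower in LatA than in LatP in 3 of 5 females.

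A group of members was low in male LatP against both LatA and MP. XM_023051587.1 of LOC111418884, whose neighbouring gene is listed as a tubulin alpha-1 chain, stood at 1222, 1873 and 2609 CPM in male LatP, against 2816, 4372 and 5309 CPM in LatA and 2779, 4597 and 7223 CPM in MP, with no overlap. Its log2 fold change was 1.03 ± 0.18 in LatA against LatP, with an edgeR adjusted p of 0.000339, and -1.43 ± 0.20 in LatP against MP, with 0.000203. XM_023057949.1 changed by 1.15 ± 0.21 and by -1.56 ± 0.28 in the same contrasts, and stood at 266 to 714 CPM in LatP and 725 to 1624 CPM in LatA. XM_023044812.1 of LOC111413729 changed by 1.25 ± 0.18 and -1.03 ± 0.27, XM_023054897.1 of LOC111421717 by 1.11 ± 0.21 and -0.98 ± 0.23, and XM_023063227.1 of LOC111427873 by 0.68 ± 0.18 and -1.31 ± 0.23. Of these 10 calls, 7 held in every refit, while XM_023044812.1 and XM_023054897.1 in LatP against MP were lost with library totals and without single males, and XM_023063227.1 in LatA against LatP without males 1, 3 or 4. In females none of these 5 was called in these contrasts without the block, and levels differed widely between animals, from 1436 to 6395 CPM for XM_023051587.1 in LatP. Within animals LatP lay below MP in 5 of 5 females for XM_023051587.1, XM_023057949.1, XM_023063227.1 and XM_023054897.1 and in 4 of 5 for XM_023044812.1, the direction seen in males. LatA lay above LatP in 4 of 5 females for XM_023051587.1, XM_023057949.1 and XM_023044812.1, in 3 of 5 for XM_023063227.1 and in 1 of 5 for XM_023054897.1.

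XM_023063173.1, the serine protease listed as Hayan-like, was low in MP of both sexes. It stood at 925, 1663 and 1986 CPM in male MP and 2243, 4303 and 6245 CPM in male LatP, with no overlap. In females it stood at 657, 670, 671, 1484 and 620 CPM in MP, at 2105, 2654, 2605, 4425 and 2730 CPM in LatP and at 3021, 2375, 5757, 8105 and 5212 CPM in MA. The log2 fold change of LatP over MP was 1.37 ± 0.23 in males with an edgeR adjusted p of 0.000863, and 1.35 ± 0.31 in females with 0.0269. MA over MP was 2.47 ± 0.44 in females with 0.0439. The male call held in every refit, the female call of MA over MP was lost without any single female, and that of LatP over MP without females 1, 2, 3 or 5. Both female calls were lost when females 3 and 5 were left out together, where the log2 fold changes were 1.26 for LatP over MP and 2.09 for MA over MP, and with the block only the former was called.

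XM_023045708.1, listed as uncharacterized, and XM_023045750.1 of LOC111414411 were low in MP and, in females, in LatP. XM_023045708.1 stood at 252, 316, 60.8, 35.5 and 96.2 CPM in female LatP and at 2345, 1601, 461, 1326 and 691 CPM in female LatA, with no overlap. The log2 fold change of LatA over LatP was 3.41 ± 0.63 with an edgeR adjusted p of 0.00322, the largest among the members called in females, and was still called without any single female, but not with left and right pieces added together before the block. In males it stood at 102.5, 159 and 630 CPM in MP, at 435, 978 and 3416 CPM in LatP and at 379, 2424 and 7865 CPM in MA, where the lowest value is that of male 1, whose MA library looked like the other region, and the next was 1897 CPM, with log2 fold changes of 2.46 ± 0.63 for LatP over MP (adjusted p 0.0253) and 3.49 ± 0.74 for MA over MP (adjusted p 0.0277), and 3.72 for the latter without the 2 doubted libraries of male 1. These were lost without males 2, 3, 5 or 6. XM_023045750.1 stood at 1222, 1155, 136, 454 and 169 CPM in female LatP and 6692, 4868, 459, 2613 and 672 CPM in female LatA, higher in LatA in each female. The log2 fold change was 2.57 ± 0.69 with an adjusted p of 0.04, and was lost when any single female was left out. It was called when females 3 and 5 were both left out, with 2.59, as was XM_023045708.1, with 3.38. In males LatP exceeded MP by 1.93 ± 0.54, with an adjusted p of 0.043, a call lost without males 2, 3, 5 or 6.

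Other members called in females were XM_023045313.1 of LOC111414126, higher in LatA than in LatP by 1.37 ± 0.31 with an edgeR adjusted p of 0.0161, and 3 members lower in LatP than in MP. The latter were XM_023048466.1 of LOC111416445 with -1.67 ± 0.35 and an adjusted p of 0.0156, XM_023063245.1 of LOC111427889 with -0.77 ± 0.18 and 0.0323, and XM_023053766.1 of LOC111420726 with -0.65 ± 0.16 and 0.033. XM_023048466.1 stood at 663, 823, 1652, 495 and 708 CPM in LatP of females 1 to 5 and 906, 2917, 2930, 955 and 1979 CPM in MP, lower in LatP in 5 of 5 females with overlap between animals, and lost its call without female 2 or 5. XM_023045313.1 stood at 1580, 1239, 496, 781 and 649 CPM in LatP and 2600, 2344, 1382, 1754 and 1526 CPM in LatA, higher in LatA in each female, and lost its call without female 4 or 5. XM_023063245.1 and XM_023053766.1 lost their calls when any single female was left out. Without females 3 and 5 together all 4 calls were lost, with log2 fold changes of 1.16 for XM_023045313.1, -1.77 for XM_023048466.1, -0.71 for XM_023063245.1 and -0.64 for XM_023053766.1, and with the block only that of XM_023063245.1. XM_023045313.1 was also not called with left and right pieces added together before the block.

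The change between LatA and LatP differed between males and females for 14 members, all of them lower in LatA relative to LatP in males than in females. This is 14% of the members against 1.03% of 15112 transcripts in edgeR's interaction term, and with the replicate block 59 members against 4.85%. The median interaction was -0.72 in the members and 0.03 in all transcripts. Without females 3 and 5 the term called 1 member against 0.235% of 14466 transcripts, and 24 against 1.85% with the block. Without the left LatA library of female 2 it called 21 against 1.53%. The term of LatP against MP called 0 members and 0.00673% of 14852 transcripts, with 8 members and 4.64% of transcripts at an unadjusted p under 0.05. With the block it called 33 members against 1.68%. DESeq2 and library totals were not used on these terms, so how far their counts and directions depend on the scaling was not tested.

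**Figure D5:**
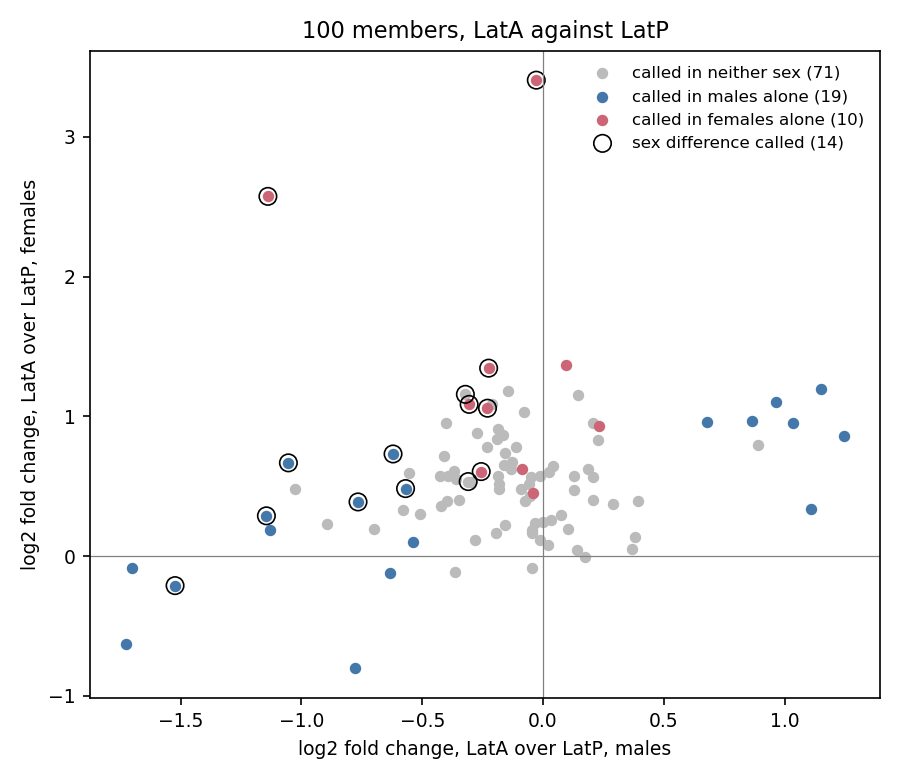
Log2 fold change of LatA over LatP (edgeR, TMM) of each of the 100 members in females (vertical axis) against males (horizontal axis), coloured by the sex in which the member was called at an adjusted p under 0.05, with rings around the 14 whose change differed between the sexes. Most points lay above 0 in females, 92 of 100, and below 0 in males, 69 of 100, and no member was called in both sexes.

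The members behind this difference included XM_023061174.1, with an interaction of -1.31 ± 0.28 (SE) and an edgeR adjusted p of 0.00813. XM_023045750.1 had -3.74 ± 0.79 with 0.00872, and XM_023045708.1 had -3.45 ± 0.75 with 0.0121. XM_023063173.1 had -1.48 ± 0.38 with 0.0374, and XM_023046166.1, the 7th highest mRNA, had -0.84 ± 0.21 with 0.0296. In XM_023045750.1 the male medians were 3178 CPM in LatA and 4209 CPM in LatP while the female medians were 2613 and 454 CPM, so the order of the regions turned around. In XM_023061174.1 LatP was above LatA in each animal of both sexes and the gap was wider in males.

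With the 6 pieces of an animal added together, 0 members were called between 6 males and 5 females, and 0.00783% of 12772 transcripts were, which is 1 transcript. At an unadjusted p under 0.05, edgeR gave 28 members, against 14.4% of all transcripts. DESeq2 called 17 members, all higher in males, against 5.66% of all transcripts. The median of the members was 0.43 higher in males with TMM against -0.01 for all transcripts, and 0.07 against -0.41 with library totals. The animal means of males and females did not overlap in 3 members, 3% against 9.19% of the 15449 transcripts past the filter. XM_023061174.1 was 4083 to 6240 CPM in males and 1677 to 2616 CPM in females, a log2 fold change of 1.71 ± 0.25 with an edgeR adjusted p of 0.0623. XM_023065038.1 was also higher in males and XM_023044995.1 higher in females, both named here after their values were seen.

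In LatP alone, with left and right added together, 10 members were called higher in males and 0 lower, against 1.4% of 13411 transcripts. With TMM, the median log2 fold change was 0.82 in the members and -0.05 in all transcripts. XM_023061174.1 was among them, with 2.31 ± 0.34 and an edgeR adjusted p of 0.0168, and so was XM_023048466.1, with 1.84 ± 0.34 and 0.0325. Without females 3 and 5, 3 members were called against 0.246% of 12594 transcripts, XM_023061174.1 among them with 1.94 ± 0.28 and an edgeR adjusted p of 0.0475. In LatA, MA and MP alone, 0 members were called between the sexes by edgeR. At an unadjusted p under 0.05 there were 4, 7 and 16 members, against 7.34%, 5.45% and 7.98% of all transcripts. DESeq2 and library totals were not used on single regions, so how far these counts and directions depend on the scaling was not tested.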

How the data were processed

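Total RNA of each piece was made into stranded mRNA libraries and sequenced from single ends. Per the labels, the authors trimmed reads with Trimmomatic 0.32 and obtained estimated counts per transcript with Bowtie2 2.3.2 and RSEM 1.3.0, and they tested with DESeq2; their methods name NCBI gene models of this species. The deposited table holds these expected counts, not normalized, and 74.3% of the values are whole. Values were rounded for the tests. The authors left out a further female for mapping problems, which is not analysed here.

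CPM, shares and sums of squares were computed from the deposited counts and the library totals. Tests used edgeR 4.0.16 (limma 3.58.1, R 4.3.3) with TMM scaling, a filter of over 1 CPM in 2 libraries, the quasi-likelihood test and Benjamini-Hochberg adjustment over all transcripts tested, and DESeq2 1.42.0 as an alternative. Scripts were tested on simulated counts. Regions were compared within a sex, and sexes on the 6 pieces of an animal added together. The pieces of an animal are paired by design. As a check, the deviations from group means of libraries of the same animal had a mean correlation of 0.284 in males and 0.416 in females, against -0.0799 and -0.127 between animals, so the value with the replicate block stands beside the count of each region contrast. P-values without the block count left and right pieces separately, although they come from 1 animal.

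Members and lists were chosen with earlier results of these data known. Members were named with values if they were among the 10 highest, among the 5 with the widest or the 5 with the narrowest range of animal means, or among the 3 called with the largest fold change in each direction of each comparison. Accessions were matched to the IU_Otau_3.0 gene table after dropping the version. CPM is not per length, so levels of different transcripts are not compared as numbers of molecules. Functional classes could not be formed, since the gene table used here gives no product names. Alternatives that leave out females 3 and 5, the left LatA library of female 2 or XM_023056446.1, and the sex by region terms, were chosen after seeing the data.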

Additional observations from a re-analysis of the deposited data

Results flagged for a closer look

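XM_023050869.1, the 6th highest mRNA, stood at 26665 CPM in male 4, far below the other 5 males, which lay between 35258.5 and 40220 CPM. It was the only such gap among 76 groups of animals examined, and chance alone gives about 1 in 20, which is more than was found.

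The change between LatA and LatP differed between males and females in 14 members by edgeR's interaction term. Among the named members the difference of the log2 fold changes, males minus females, was -1.31 in XM_023061174.1, -3.74 in XM_023045750.1, -0.84 in XM_023046166.1, -1.48 in XM_023063173.1 and -3.45 in XM_023045708.1. Without females 3 and 5 the term called 1 member, and the part of those animals in the difference between the sexes cannot be told apart from sex with 5 females.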

How the results depend on the processing

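In males, 26 members were called between regions, against 63 with the replicate block, 50 with left and right pieces added together and the replicate block, 40 with DESeq2 and 0 at the study's thresholds in edgeR without the block, and 20 to 26 when leaving out each male. In females, 15 were called, against 86 with the replicate block, 63 with left and right added and the replicate block, 28 with DESeq2, 7 with no filter, 0 at the study's thresholds in edgeR without the block and 2 to 12 when leaving out each female. Without females 3 and 5 these were 6, and 38 with the replicate block, and without the left LatA library of female 2 the replicate block gave 89. Between the sexes 0 members were called, and 0 when leaving out each animal. Library totals gave 3, against 16.5% of all transcripts, and DESeq2 gave 17. LatP alone gave 10, and 3 without females 3 and 5. The mean share was 65.0% for the 50 highest and 76.0% for the 200 highest mRNAs, and 70.3% to 71.1% when leaving out each animal, which moved the gap between the sexes between 4.44 and 5.56 points. The 28 named calls were refitted 390 times under the alternatives, kept their call in 308, lost it in 82 and changed direction in 0. The cause of these differences was not tested. Depth limits no member but XM_023056446.1, which lay near the floor of 3 counts in 4 animals.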
